A study of Mus musculus with 8 samples.

Results

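The 10 core genes of the circadian clock were followed in RNA from sorted somatostatin (SST) neurons of the mouse hypothalamus. The members, *Clock*, *Arntl*, *Npas2*, *Per1*, *Per2*, *Per3*, *Cry1*, *Cry2*, *Nr1d1* and *Nr1d2*, were taken by name from the 35968 genes to which the deposited transcripts could be joined, and all 10 were among the 15194 genes that passed the filter on low counts. The cells came from the tuberal nucleus (TN), a lateral hypothalamic region, of 4 female and 4 male mice that carried 1 copy of the *Sst-Cre* driver (Ssttm2.1(cre)Zjh/J / +) on a C57BL/6J background. All 8 mice received AAV2-flex-tdTomato, a virus whose red label appears only after Cre recombination, so the label marks cells in which the *Sst* locus has driven Cre since the injection. The tissue was dissociated with papain, living nucleated red cells were collected by flow cytometry, and 1 library per mouse was sequenced in bulk. Females were cycling, males were gonadally intact, mice were adult when injected, and their age in weeks, the estrous stage and the hour at which each mouse was killed are not given in the sources used here. Mice were kept under alternating light and dark periods of equal length.

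In the mammalian clock, CLOCK or its relative NPAS2 pairs with ARNTL (also named BMAL1) and activates genes that carry E-boxes in their promoters. Among these genes are the *Per* and *Cry* genes, whose proteins return to the nucleus and repress the activators, and *Nr1d1* and *Nr1d2*, which encode the REV-ERB receptors that repress *Arntl*. The loop runs in most cells of the body, the suprachiasmatic nucleus sets its phase to light, and in many tissues *Arntl* RNA peaks at a time of day when *Nr1d1* and *Per* RNA are low. *Per1* is also induced within minutes by neuronal activity and by glucocorticoids.

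Total counts lay between 7.83 and 17.6 per mouse in units of 1000000, and the mitochondrial leucyl-tRNA synthetase gene *Lars2* took 9.28% to 34.3% of them. Counts scaled by edgeR's TMM method are called CPM (counts per 1000000) below, and on that scale 3 counts correspond to 0.148 to 0.457 CPM. *Sst* ranked 45 by mean level and lay between 898 and 1883 transcripts per 1000000 (TPM). The Y-linked check genes were higher in all 4 males. Markers of glia were present too, and their summed level varied widely. The 5 microglial genes lay between 193 and 1059 TPM in females and between 393 and 1931 TPM in males. For the 5 astrocyte genes the range was 70.5 to 241 TPM in females and 196 to 409 TPM in males. For the 5 oligodendrocyte genes it was 312 to 1495 TPM in females and 526 to 1333 TPM in males. None of the 10 microglial and astrocyte genes was at 0 in any mouse, and *Slc1a3* (45.9 to 221 CPM) was the most abundant of the astrocyte genes. The 8 markers of suprachiasmatic neurons were mixed. The neuropeptide genes *Vip* (0 to 1.34 CPM) and *Nms* (0 to 0.269 CPM) were at or near the limit of detection, *Prok2* (0.449 to 2.56 CPM) and *Lhx1* (0.628 to 2.74 CPM) were low, and *Six6* (15.6 to 39.8 CPM), *Syt10* (16.5 to 30.03 CPM) and *Rgs16* (6.49 to 13.7 CPM) were detected in every mouse. *Avp*, which other hypothalamic neurons also express, ranged from 0.0915 to 220.3 CPM. In bulk samples, fewer cells of a type and less RNA per cell cannot be told apart.

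Promoter windows of 4 members are shown because they carry the letters of the clock's known elements and belong to genes whose values are compared below. The windows run from 250 bases before to 50 bases after an annotated start, come from RefSeq on GRCm38.p6 and are written 5' to 3' on the strand of the gene. Capitals mark matches.
*Per1* (chr11:69098699-69098998, plus strand): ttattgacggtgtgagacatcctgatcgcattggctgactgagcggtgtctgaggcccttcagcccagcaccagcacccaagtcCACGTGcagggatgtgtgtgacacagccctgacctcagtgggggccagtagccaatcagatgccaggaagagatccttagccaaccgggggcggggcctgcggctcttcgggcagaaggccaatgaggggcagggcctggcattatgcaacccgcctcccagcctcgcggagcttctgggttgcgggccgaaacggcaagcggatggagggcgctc
*Cry1* (chr10:85185005-85185304, minus strand): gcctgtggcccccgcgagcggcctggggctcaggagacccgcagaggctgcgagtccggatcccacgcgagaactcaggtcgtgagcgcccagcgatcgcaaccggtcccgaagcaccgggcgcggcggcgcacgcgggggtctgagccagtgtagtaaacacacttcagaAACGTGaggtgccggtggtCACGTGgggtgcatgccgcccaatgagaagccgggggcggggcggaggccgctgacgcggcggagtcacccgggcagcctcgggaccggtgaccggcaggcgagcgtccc
*Per3* (chr4:151044616-151044915, minus strand): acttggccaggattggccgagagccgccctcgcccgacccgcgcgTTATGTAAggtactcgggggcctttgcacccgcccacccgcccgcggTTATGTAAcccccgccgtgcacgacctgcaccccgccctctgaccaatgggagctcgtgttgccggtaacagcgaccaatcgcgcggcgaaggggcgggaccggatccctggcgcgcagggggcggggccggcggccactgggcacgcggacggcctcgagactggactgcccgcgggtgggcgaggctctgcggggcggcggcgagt
*Arntl* (chr7:113207261-113207560, plus strand): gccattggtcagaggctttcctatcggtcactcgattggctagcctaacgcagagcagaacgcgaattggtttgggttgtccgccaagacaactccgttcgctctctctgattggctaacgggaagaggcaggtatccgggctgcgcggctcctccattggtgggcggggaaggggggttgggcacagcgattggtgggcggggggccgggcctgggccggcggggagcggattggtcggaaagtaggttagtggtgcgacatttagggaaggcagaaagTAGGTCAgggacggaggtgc
Of the 10 members, 9 matched a RefSeq window, and *Per2* had no entry. The motifs were searched on both strands as the E-box CACGTG, the E-prime box CACGTT, the D-box TTANGTAA, the core of the element bound by ROR and REV-ERB receptors TAGGTCA and the cAMP response element TGACGTCA. The E-box was found in *Per1*, at position -166 in 1 of its 2 windows, and in *Cry1*, at -60. Positions are counted from the first transcribed base at 0. Of all 32851 windows of this length, 7.15% hold an E-box. Such shares are per window, and a member can have more than 1 window (*Clock* has 3). *Cry1*, *Cry2* and *Nr1d1* each held 1 E-prime box (4.68% of windows), which in all 3 reads AACGTG on the strand of the gene. *Per3* held 2 D-boxes, at -205 and -158, where 2.32% of windows hold any, and D-boxes are bound by the transcription factors DBP, TEF and HLF and by their antagonist NFIL3. *Arntl* held the core TAGGTCA at position 30 in 1 of its 2 windows (2.61% of windows). The cAMP response element was in none of the members' windows and in 1.79% of all windows. A match describes these letters only, and binding was not measured here.

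All 10 members were detected in every mouse, with between 101 counts (*Npas2*) and 2280 counts (*Clock*) per mouse. Levels of different genes are compared in TPM, which corrects for transcript length. *Per1* had the highest mean level, 53.5 ± 5.33 TPM (SD, n = 8), and *Cry2* (50.3 ± 6.34 TPM) did not stand apart from it, since *Per1* was above *Cry2* in 4 of 8 mice. *Nr1d2* followed with 38.0 ± 4.64 TPM, *Nr1d1* with 31.04 ± 3.11 TPM and *Clock* with 25.6 ± 3.89 TPM, and each of these was below its upper neighbour in 8 of 8 mice. Neighbours in the next stretch of the order, from *Clock* through *Npas2* (22.8 ± 6.79 TPM), *Per3* (17.8 ± 3.80 TPM) and *Arntl* (16.5 ± 2.20 TPM) to *Cry1* (14.7 ± 3.87 TPM), did not stand apart, each above the next in 5 or 6 of 8 mice. *Per2* was lowest at 10.1 ± 1.18 TPM, below *Cry1* in 8 of 8 mice.

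The place of *Npas2* in this order rested on a short transcript. *Npas2*-203, of 484 bases, held 18.5% of the gene's counts but 15.3 of its 22.8 TPM, because TPM divides by length. The transcript *Npas2*-201, of 4236 bases, held 77.8% of the counts and 4.60 TPM. With transcripts of at least 1000 bases only, *Npas2* was last of the 10 at 4.60 ± 1.14 TPM and *Clock* was 4.92 to 7.58 times as abundant in each mouse, where all transcripts together gave 0.842 to 2.10 times. *Nr1d2* was then at 32.5 ± 4.96 TPM, 0.950 to 1.30 times *Nr1d1*, so that these neighbours no longer stood apart in every mouse. With protein-coding transcripts only the order turned round in all 8 mice, at 0.652 to 0.954 times *Nr1d1*, with means of 24.6 TPM for *Nr1d2* and 29.8 TPM for *Nr1d1*. *Per1* and *Cry2* remained the highest.

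Several related genes had 1 order in all mice when all transcripts were counted. *Cry2* was 2.53 to 4.97 times as abundant as *Cry1*, *Per1* was 3.57 to 6.43 times as abundant as *Per2* and 2.16 to 4.17 times as abundant as *Per3*, and *Per3* was 1.42 to 2.25 times as abundant as *Per2*, all in TPM. The repressor *Nr1d1* was 1.63 to 2.27 times as abundant as its target *Arntl* in each mouse. All of these ratios stayed above 1 in every mouse with transcripts of at least 1000 bases only. With protein-coding transcripts only they did so too, except that *Per3* was 0.87 to 1.39 times *Per2* and above it in 7 of 8 mice.

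How the counts of a gene fell on its annotated transcripts varied more than its total. *Per1*-201 held between 33.4% and 77.2% of *Per1* counts in a mouse and *Per1*-203 between 11.1% and 45.7%, and *Arntl*-201 held between 36.6% and 86.8% of *Arntl* counts. *Per3* had a single protein-coding transcript, which held 66.5% to 86.3% of its counts. *Cry1*-201, *Nr1d1*-201 and *Per2*-201 each held at least 96.2% of their gene's counts in every mouse. Reads that fit several transcripts are divided by estimation, so these shares are less certain than the sums per gene.

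The sexes were compared to ask whether the clock genes of SST neurons differ between females and males. None of the 10 members passed an adjusted p of 0.05 (quasi-likelihood test of edgeR, Benjamini-Hochberg adjusted over all genes, by which 0.158% of genes were called, 0.112% toward females and 0.0461% toward males), and DESeq2, which called 7.37% of genes, called none of them either. At an unadjusted p under 0.05, 1 member, *Npas2*, was past the threshold, where 20.5% of all genes were (9.86% toward females and 10.7% toward males). It was also the 1 member whose sexes did not overlap, as in 10.4% of genes. The signs were mixed, with 7 members nominally above 0 (females) and 3 below. The median log2 difference, females minus males, was 0.09 for the members and -0.0043 for all genes tested. Nominally higher or lower, here and below, refers to the sign of a difference alone, whatever its p. The unadjusted p-values set each sex difference against the spread between mice within a sex, which edgeR estimates with help from all genes.

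Among the activators, *Npas2* differed most. In CPM, and in the order of mice 1 to 4 as in all lists of values here, its level was 14.8, 15.4, 17.6 and 17.4 in females and 10.8, 12.5, 11.1 and 13.6 in males. Every female lay above every male, as in 6.48% of all genes tested. The log2 difference was 0.44 ± 0.14 (SE, n = 4 per sex), with a 95% interval of 0.14 to 0.75, and the adjusted p in edgeR was 0.143. Each mouse's values were deposited in 2 blocks, and the difference was 0.66 in the first block and 0.20 in the second. The long transcript *Npas2*-201 alone measured 10.5, 11.98, 14.2 and 13.002 CPM in females and 8.35, 8.72, 9.93 and 10.8 CPM in males, so that female 1 lay below male 4.

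The other activators were close to equal. *Clock*, which encodes a partner of ARNTL, measured 89.6, 99.4, 112 and 102 CPM in females and 104, 80.6, 93.6 and 94.6 CPM in males, a log2 difference of 0.11 with an interval of -0.11 to 0.34. *Arntl*, the shared partner, measured 23.9, 23.9, 29.4 and 23.8 CPM in females and 22.4, 24.6, 23.3 and 28.7 CPM in males. The sexes overlapped in both genes, and in *Arntl* female 3 stood apart from the other females. The *Arntl* difference was 0.03 with an interval of -0.24 to 0.31, so that a female to male ratio below 0.844 or above 1.24 lay outside it.

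The *Per* genes, which encode repressors, did not share a direction. *Per1* measured 139, 105, 110.3 and 125 CPM in females and 134, 154, 137 and 132 CPM in males, and 3 of 4 females lay below all males. The log2 difference was -0.21 ± 0.10 (SE) and the adjusted p in edgeR was 0.260. *Per2* measured 30.8, 39.8, 33.3 and 36.5 CPM in females and 28.4, 26.4, 32.6 and 32.2 CPM in males, with 3 of 4 females above all males. Its difference was 0.23 ± 0.12 (edgeR, adjusted p = 0.298). *Per3* measured 46.5, 57.9, 62.2 and 56.3 CPM in females and 54.8, 46.1, 42.8 and 49.1 CPM in males, again with 3 of 4 females above all males, a difference of 0.21 ± 0.12 (edgeR, adjusted p = 0.331).

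The cryptochromes, which act with the PER proteins, were both nominally higher in females. *Cry1* measured 19.4, 19.97, 28.1 and 25.05 CPM in females and 17.1, 18.8, 20.96 and 17.6 CPM in males. Females 3 and 4 lay above all other mice, the difference was 0.32 ± 0.15, and the adjusted p in edgeR was 0.264. *Cry2* measured 91.9, 105, 106 and 112 CPM in females and 105, 92.6, 91.3 and 105 CPM in males, with a difference of 0.07 and an interval of -0.12 to 0.27. An antisense transcript overlaps 4.67% of the exon bases of *Cry2*.

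The REV-ERB genes were nominally higher in males. *Nr1d1* measured 41.3, 43.9, 43.8 and 42.5 CPM in females and 49.0, 50.2, 40.9 and 48.8 CPM in males, so that 3 males lay above all females and male 3 below them. The difference was -0.14 ± 0.09 with an interval of -0.35 to 0.07. *Nr1d2* measured 66.9, 68.7, 67.9 and 64.1 CPM in females and 91.5, 66.9, 77.0 and 73.0 CPM in males, and 3 males lay above all females. Its difference was -0.21 ± 0.10 (edgeR, adjusted p = 0.282). *Nr1d1* shares 8.55% of its exon bases with *Thra* on the opposite strand, and 514 of the 5403 stretches of 31 bases in *Nr1d2* also occur in AC170187.1, so a part of these counts is uncertain.

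**Figure D1:**
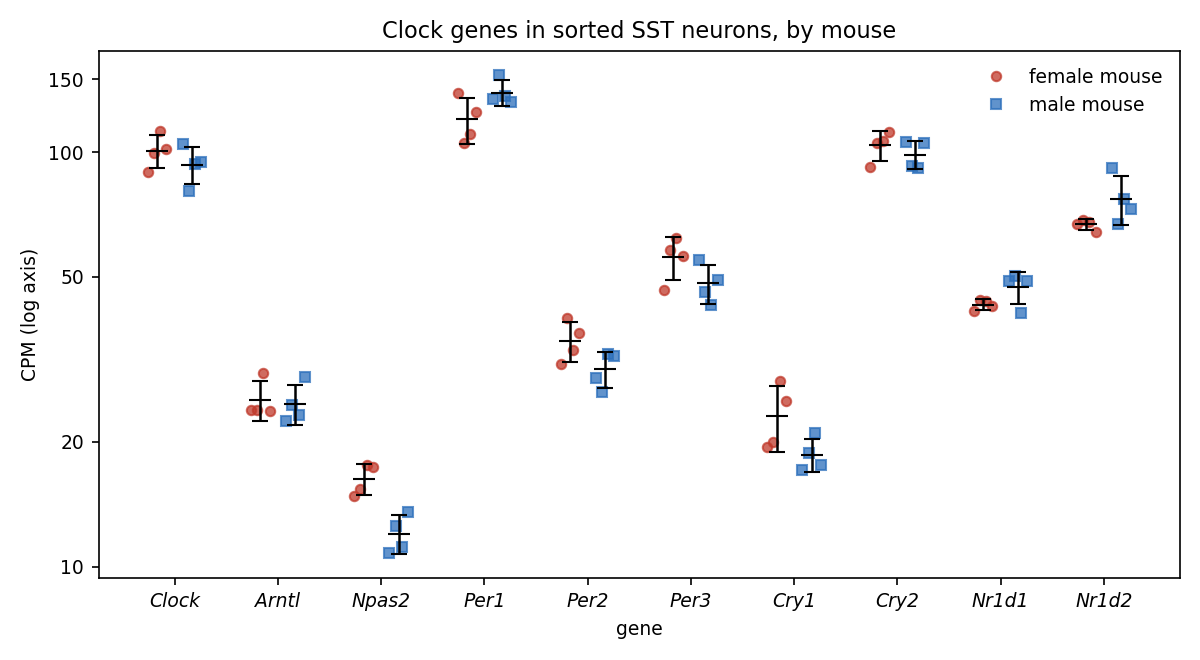
Level of each clock gene in CPM (log axis) in 4 female mice (red circles) and 4 male mice (blue squares), with the mean and SD of each sex in black. *Npas2* is the only member whose sexes do not overlap, with females from 14.8 to 17.6 CPM and males from 10.8 to 13.6 CPM.

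The genes that surround the core loop gave a similar count. Of 16 other clock genes, which include the ROR receptors, the kinases that phosphorylate PER and the ubiquitin ligases that degrade PER and CRY, none passed the adjusted threshold in edgeR, 8 were nominally higher in females and 8 in males, and the median log2 difference was 0.00. The most abundant were *Nono*, *Fbxw11*, *Gsk3b* and *Csnk1d*, at means of 317, 119, 83.8 and 82.0 TPM. *Nono*, which encodes an RNA- and DNA-binding partner of PER proteins, measured 187, 184, 178 and 164 CPM in females and 224, 221, 212 and 197 CPM in males. Every male lay above every female, as in 3.94% of genes tested, and the difference was -0.26 ± 0.07 (edgeR, adjusted p = 0.122, and 0.0408 in DESeq2). *Sirt1*, a deacetylase, was next toward males at -0.25 (adjusted p in edgeR 0.260), and *Btrc*, a subunit of a ubiquitin ligase for PER, and *Gsk3b*, a kinase, had the smallest p toward females at 0.22 and 0.14 (adjusted p in edgeR 0.272 and 0.418). The receptor genes *Rora* (28.1 to 39.9 CPM) and *Rorb* (36.7 to 63.5 CPM) were detected in all mice.

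Clock output genes are driven by the core loop through E-boxes, D-boxes or REV-ERB elements, and 0 of 10 passed the adjusted threshold in edgeR. At an unadjusted p under 0.05, 1 was higher in females and 1 in males, where 9.86% and 10.7% of all genes were. *Tef*, which encodes a D-box activator, was the most abundant at a mean of 428 TPM and measured 193, 222, 253 and 209.6 CPM in females and 174, 138, 162 and 147 CPM in males. All females lay above all males, as in 6.48% of genes tested, and the difference was 0.50 ± 0.10 (edgeR, adjusted p = 0.0797). DESeq2 placed *Tef* past the threshold with an adjusted p of 0.0021, and edgeR did so without female 1 (0.0421) or without male 1 (0.0456). The other D-box activators did not share this direction, with *Dbp* at 0.13 and *Hlf* at -0.19 on the log2 scale. *Bhlhe41*, an E-box repressor, was the gene past the unadjusted threshold toward males, at -0.25 (edgeR, adjusted p = 0.229). *Nampt*, an enzyme of NAD synthesis, had the lowest difference at -0.47 (adjusted p in edgeR 0.249). *Bhlhe40* and *Usp2*, also clock targets, were at -0.14 and -0.24. In *Usp2* all males lay above all females, as in 3.94% of genes tested (edgeR, adjusted p = 0.317).

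**Figure D2:**
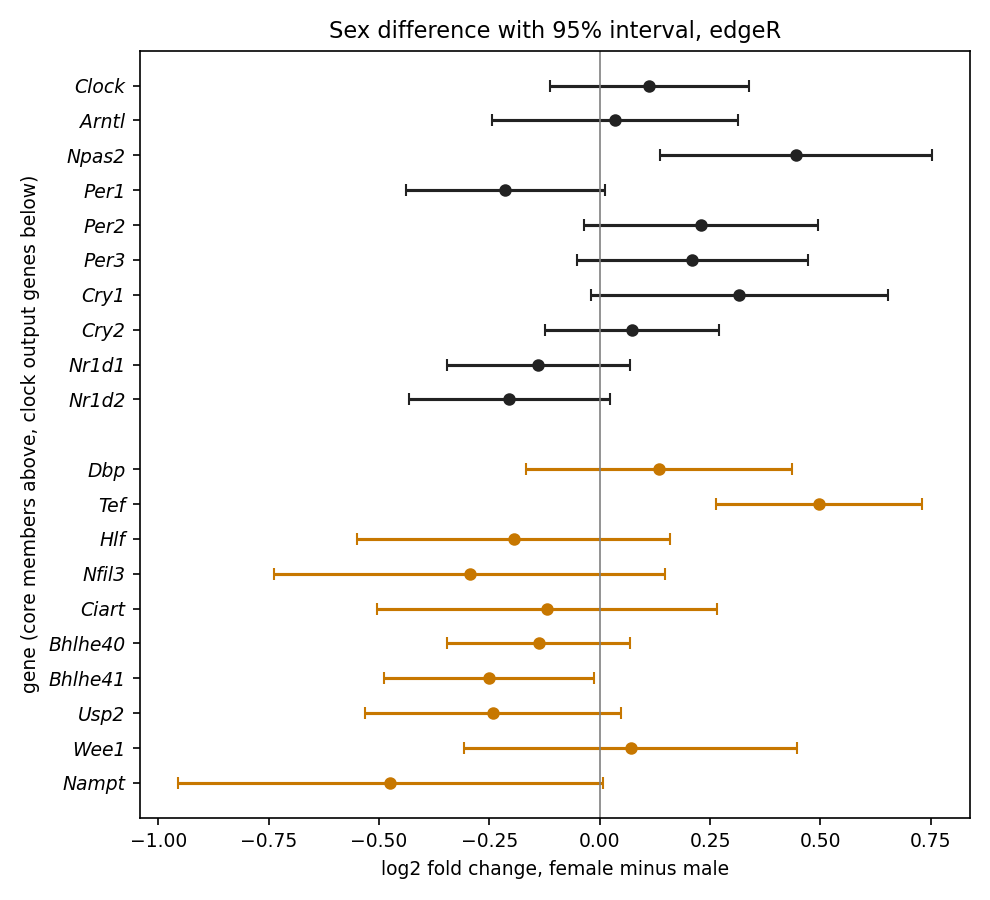
Log2 fold change, female minus male, with its 95% interval from edgeR for the 10 clock genes (black, above) and 10 clock output genes (orange, below). The intervals of *Npas2* (0.14 to 0.75), *Tef* (0.26 to 0.73) and *Bhlhe41* (-0.49 to -0.01) leave out 0, and none of the 20 genes passed the adjusted threshold.

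Markers of other cells and of cell state were compared between the sexes too. Of all 15194 genes tested, 7506 were nominally higher in females and 7688 in males. The 8 neuron identity genes were all nominally higher in females, with a median log2 difference of 0.24. The 5 microglial, 5 astrocyte and 5 oligodendrocyte genes were all nominally lower in females, with medians of -1.22, -0.80 and -0.72. Of the genes in these lists, 0 passed the adjusted threshold in edgeR. Of 12 immediate early genes, 10 were nominally higher in males and 0 passed, and of 8 glucocorticoid-responsive genes 6 were and 0 passed. At an unadjusted p under 0.05 in edgeR, 9 immediate early genes were higher in males and 1 in females. For glucocorticoid-responsive genes these counts were 2 and 1, where 10.7% of all genes were past it toward males and 9.86% toward females. *Fos*, *Fosb*, *Egr1* and *Junb* differed by -0.45, -0.50, -0.50 and -0.73, all 4 males lay above all females in *Fosb* (edgeR, adjusted p = 0.0797) and in *Btg2* (-0.76, edgeR, adjusted p = 0.0965), *Arc* was below all females in all 4 males (0.51, edgeR, adjusted p = 0.0966), and *Npas4* was at 0.09. Of the glucocorticoid-responsive genes, *Fkbp5* was at -0.32, *Sgk1* at -0.57, *Tsc22d3* at -0.17, *Cdkn1a* at -1.38, *Zbtb16* at 0.59 and *Klf9*, in which all 4 females lay above all males, at 0.26 (edgeR, adjusted p = 0.166). Among all genes tested, all males lay above all females in 3.94% and all females above all males in 6.48%. The differences of the members were refitted with the mean of a marker list as a covariate. *Npas2* was at 0.57 with the neuron identity mean and at 0.48 with the microglial mean, and *Nr1d2* at -0.45 and -0.33. Of the others, *Per1* was at -0.0485 and -0.0925, *Cry1* at 0.16 and 0.21, *Per3* at -0.0174 and 0.03 and *Per2* at 0.24 and 0.22, and *Clock* turned to -0.14 and -0.0458. *Tef* was at 0.17 and 0.30. With the immediate early mean, *Npas2* was at 0.49, *Per1* at -0.16, *Cry1* at 0.07, *Per3* at -0.0123 and *Nr1d2* at -0.36, and with the glucocorticoid-responsive mean *Npas2* was at 0.50 and *Per1* at -0.20. None of the members passed the adjusted threshold in edgeR in these fits, and the part of the astrocyte and oligodendrocyte markers was not tested.

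The clock genes varied by less than 2 times between mice. The highest mouse was 1.22 (*Cry2*) to 1.64 times (*Cry1*) the lowest, in CPM. The SD of log2 CPM over 8 mice was 0.11 for *Cry2*, 0.12 for *Nr1d1*, 0.14 for *Arntl* and 0.15 for *Clock*, and was largest for *Cry1* (0.25) and *Npas2* (0.27), the members with the lowest CPM. Counting error alone gives 0.12 for *Npas2* and 0.05 for *Cry2*. The median SD of the members was 0.172, against 0.279 for all genes tested and 0.200 for the 7448 genes in the same range of level. By the same measure, the median was 0.452 for immediate early genes and 1.11 for microglial genes. No cause for the difference in spread was tested, and the hours of collection are not known.

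**Figure D3:**
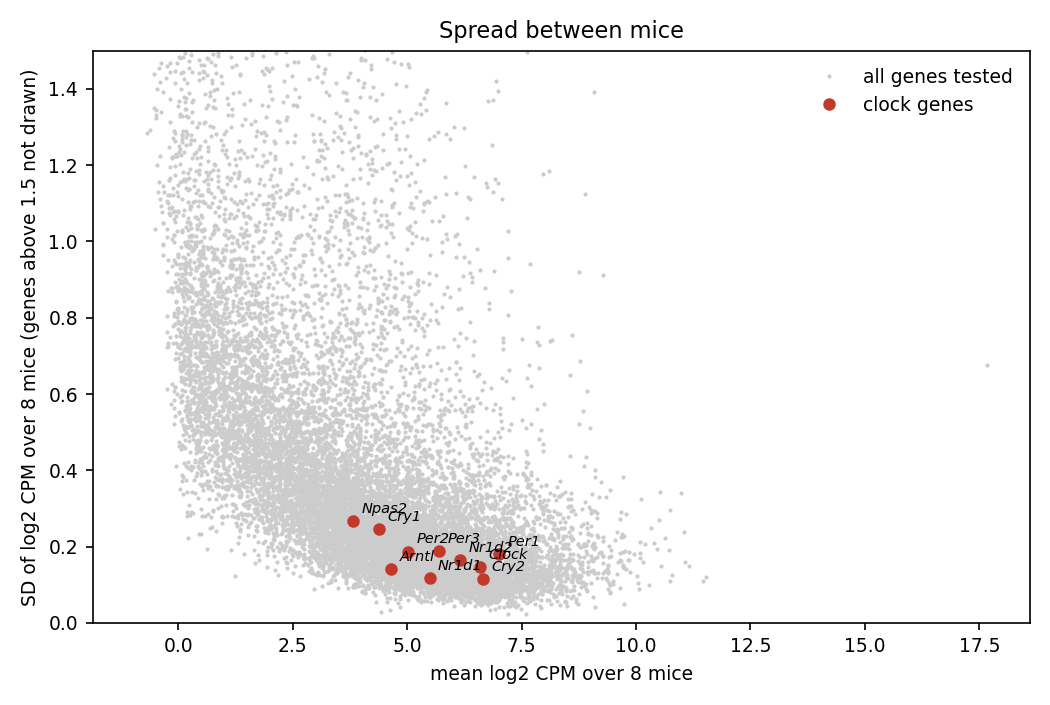
SD of log2 CPM over 8 mice against mean log2 CPM for all 15194 genes tested (grey, genes above an SD of 1.5 not drawn) and the 10 clock genes (red). The members lie between 0.11 and 0.27, and *Cry2* and *Nr1d1* are the lowest of them.

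Relations between members were examined over the 8 mice, for which the hour of collection is not known. Pearson's r was computed on log2 CPM for the 45 pairs, with exact two-sided permutation tests, and 0 pairs passed a Benjamini-Hochberg adjusted p of 0.05, while 8 had an unadjusted p under 0.05. Spearman's rho gave 0 and 7. The 3 pairs of activators were positive at 0.25 to 0.47. Of the 21 pairs of an activator with a repressor, 14 were positive and 7 negative. *Arntl* had r with its repressors and targets between -0.33 (*Nr1d2*) and 0.37 (*Cry1*), and it was at 0.18 with *Nr1d1*. Without female 3 and male 4, the most distant in *Arntl*, these 3 values were -0.90, 0.30 and -0.02. Leaving out 1 mouse moved the value with *Nr1d2* between -0.46 and 0.08.

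The negative relations of largest size joined *Per1* to *Per2*, by Pearson's r, and to *Per3*, by Spearman's rho. For *Per2*, Pearson's r was -0.83 and Spearman's rho -0.86 (exact permutation p = 0.0134 and 0.0107, n = 8; adjusted p = 0.120 over 45 pairs), and r was -0.85 without females 2 and 3, which lay farthest from the median of *Per1*. *Per1* was negative with *Per3* too, with r = -0.81 and rho = -0.88 (exact permutation p = 0.0118 and 0.0072, n = 8; adjusted p = 0.120), and r was -0.62 without the same mice. Female 2 had the lowest *Per1* and the highest *Per2*, and male 2 the highest *Per1* and the lowest *Per2*. With values centred within each sex, r was -0.70 for both pairs. *Per2* and *Per3* were related at 0.49 (exact permutation p = 0.214, n = 8).

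**Figure D4:**
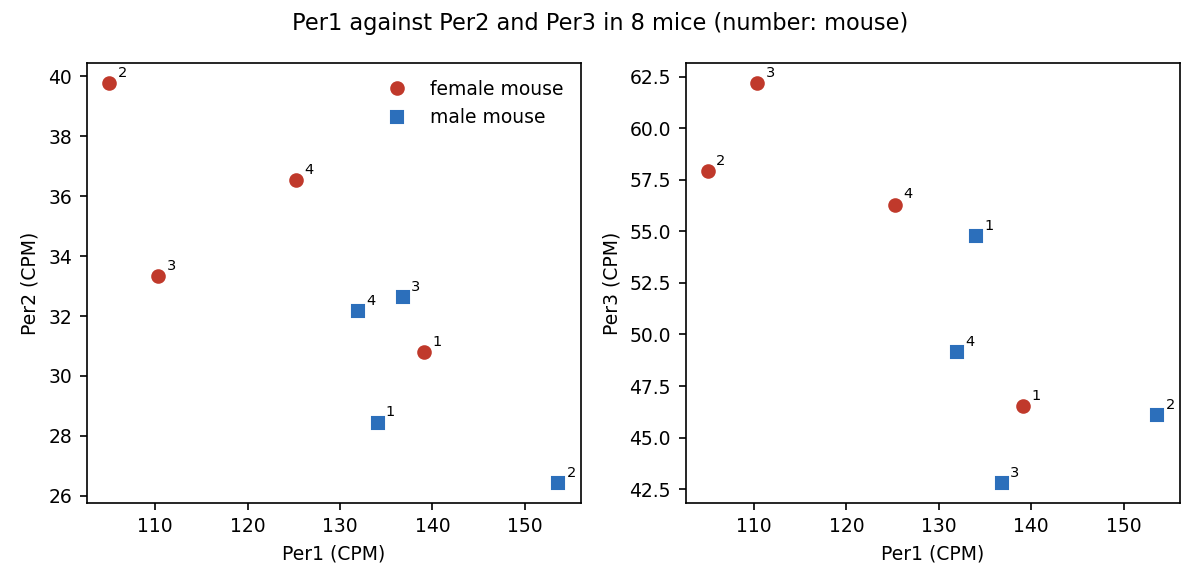
*Per1* in CPM against *Per2* (left) and *Per3* (right) in 4 female (red circles) and 4 male mice (blue squares), each with its number. *Per2* and *Per3* tended to be lower in mice with higher *Per1*, with exceptions, and r over 8 mice was -0.83 and -0.81. Neither pair passed the adjusted threshold (exact permutation, adjusted p = 0.120 for both).

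The other pairs with an unadjusted p under 0.05 (exact permutation) had adjusted p from 0.120 to 0.194 over 45 pairs. They form a group of positive relations and a smaller one of negative relations. *Clock*, *Per3* and *Cry2* were positive with each other, with r = 0.81 for *Clock* and *Per3* (exact permutation p = 0.0115), 0.75 for *Clock* and *Cry2* (exact p = 0.0244) and 0.85 for *Per3* and *Cry2* (exact p = 0.0101). *Npas2* and *Cry1* were related at 0.74 (exact p = 0.0345). *Clock* and *Per1* were related at -0.76 (exact p = 0.028), as did *Npas2* and *Nr1d2* at -0.78 (exact p = 0.0088). With the 2 most distant mice on the x axis left out, r was 0.81 for *Clock* with *Per3* and 0.81 for *Clock* with *Cry2*. It was 0.84 for *Per3* with *Cry2* and 0.89 for *Npas2* with *Cry1*. For *Clock* with *Per1* it was -0.41 and for *Npas2* with *Nr1d2* -0.45, so these 2 relations were weaker without those mice. With 1 mouse left out, they stayed between -0.92 and -0.61 (*Clock* with *Per1*) and between -0.89 and -0.73 (*Npas2* with *Nr1d2*).

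**Figure D5:**
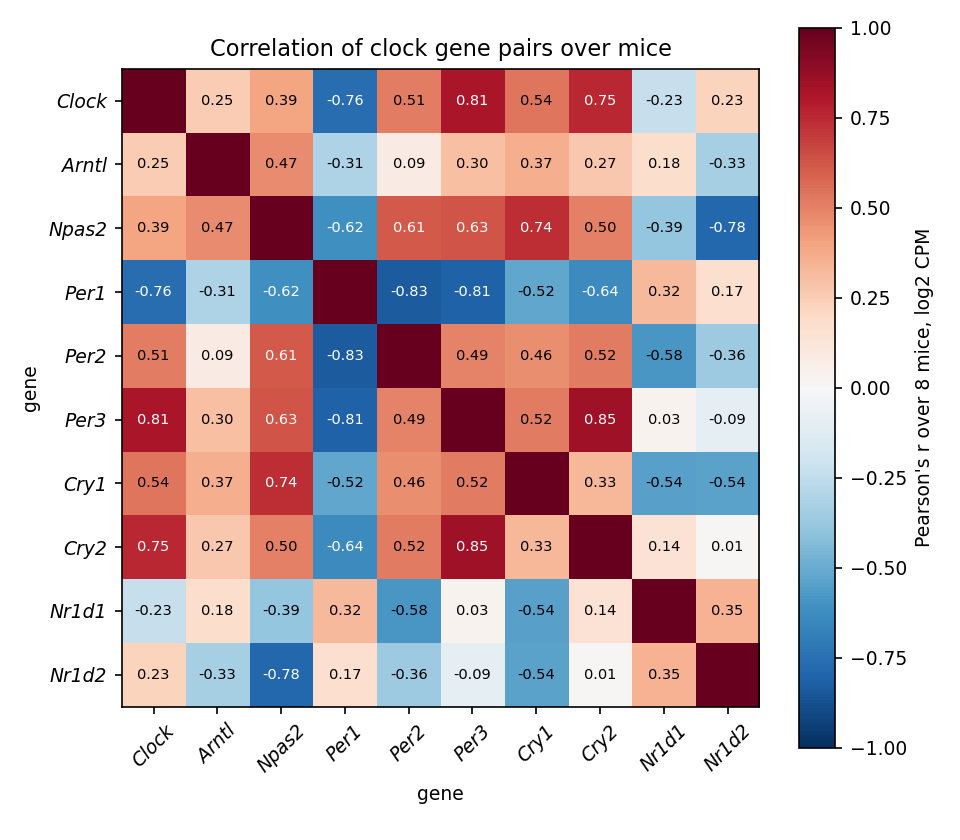
Pearson's r of log2 CPM over 8 mice for each of 45 pairs of clock genes, from -1 (blue) to 1 (red). *Per1* is negative with *Per2* (-0.83), *Per3* (-0.81) and *Clock* (-0.76), and no pair passed the adjusted threshold.

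Over the same 8 mice, 0 of 20 relations of *Arntl* or *Nr1d1* with the 10 output genes passed the adjusted threshold. *Nr1d1* was related to *Bhlhe40* at r = 0.84 (rho = 0.83, exact permutation p = 0.0116, adjusted p = 0.107, n = 8), to *Nfil3* at 0.74 (rho = 0.76, exact p = 0.0088) and to *Usp2* at 0.72 (rho = 0.52, exact p = 0.016). With males 1 and 2, the most distant in *Nr1d1*, left out, r was 0.68, 0.95 and 0.77. *Nr1d1* was at -0.63 with *Dbp* (rho = -0.40, exact adjusted p = 0.365, r = -0.95 without males 1 and 2) and at -0.56 with *Tef* (rho = -0.38, exact adjusted p = 0.430, r = -0.30 without them). *Nfil3*, a D-box repressor and a target of REV-ERB repression, thus had no negative relation with *Nr1d1*. *Arntl* was at -0.50 with *Dbp* (rho = -0.81, exact adjusted p = 0.430 for r) and at -0.57 with *Hlf* (rho = -0.55, exact adjusted p = 0.365 for r), and at -0.73 and -0.95 with the 2 most distant mice in *Arntl* left out. For *Dbp*, the exact permutation p of rho was 0.0218 (adjusted p = 0.218), and r without male 2 was -0.85.

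Clock gene levels were also set against the markers of other cells, of cell state and of depth. Of these 70 relations 0 passed the adjusted threshold (smallest adjusted p 0.174, exact permutation, n = 8). *Clock* was negative with the astrocyte mean (r = -0.87, rho = -0.88, exact p = 0.0069) and the microglial mean (-0.85, rho -0.76, exact p = 0.0059), and *Per3* was negative with the microglial mean (-0.88, rho -0.81, exact p = 0.0074). With the 2 most distant mice left out, these 3 were -0.65, -0.90 and -0.91. *Per1* was positive with the microglial mean at 0.79 (rho 0.67, exact adjusted p = 0.234, 0.81 with 2 mice left out) and was at 0.58 with the immediate early mean (exact adjusted p = 0.406, 0.58 with 2 mice left out). The microglial mean was thus of 1 sign with *Clock* and *Per3* and of the other with *Per1*, and its part in the relations among these 3 genes was not tested. With the immediate early mean, *Per3* was at -0.75 (exact adjusted p = 0.247) and *Cry1* at -0.73 (exact adjusted p = 0.256). With 2 mice left out these were -0.81 and -0.38. *Cry1* was at -0.80 with the astrocyte mean (exact adjusted p = 0.203). With the neuron identity mean, *Clock*, *Per3* and *Per1* were at 0.76, 0.76 and -0.74 (exact adjusted p = 0.247 each). Leaving out 2 mice gave 0.73, 0.90 and -0.77. *Per1* was at -0.10 with total counts and at -0.06 with the *Lars2* share, and leaving out 1 mouse, female 2 or female 3, moved these from -0.66 to 0.63 and from -0.68 to 0.71. *Arntl* had r between -0.46 and 0.33 with these measures, but between -0.85 and 0.82 with 2 mice left out, so its values rest on single mice.

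Of all genes tested, the 3 most like *Arntl* over 8 mice by Pearson's r on log2 CPM were *Ankrd10* (0.95), *Klhl5* (0.95) and *Zbtb26* (0.93). Those most like *Per1* were *C1ra*, *Atm* and *Tgtp1* at 0.98 to 0.99, those most like *Per2* were *Gm6641*, *Gper1* and *Tmem17* at 0.95, and those most like *Nr1d1* were *Mrps7*, *Rpl19-ps9* and *Flt3* at 0.96 to 0.97. None of these was a clock gene. Among 15193 genes ranked by r with *Arntl*, *Npas2* stood at 1330, *Cry1* at 2289, *Nr1d1* at 4609, *Per1* at 12139 and *Nr1d2* at 12465. By r with *Nr1d1*, the output genes *Bhlhe40*, *Nfil3* and *Usp2* stood at 55, 245 and 306, and *Tef* and *Dbp* at 13931 and 14563. With 8 mice and this many genes, values of this size are a description.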

How the data were processed

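Sorted cells of 8 *Sst-Cre* mice (4 per sex) were sequenced with a SMARTer stranded total RNA kit, single-end, 1 library per mouse. Per the labels and the methods, the authors used kallisto 0.46.2 with mm10, and DESeq2 2.11.40.6 for their tests. The deposited estimated counts per transcript are not normalized and can be fractions. The deposited TPM values came in 2 blocks per mouse, each summing to 1000000, and are treated here as a score column whose mean over the blocks is the TPM of a gene. The strand setting of the counting is not given in the sources used here. Transcripts were joined to genes with GENCODE M21, where 116728 of 118489 matched. Estimated counts of both blocks were summed per gene and rounded.

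Females and males were compared by edgeR 4.0.16 in R 4.3.3 (TMM, default filter, quasi-likelihood test, adjusted p under 0.05), females minus males. DESeq2 1.42.0 was an alternative. Log2 CPM used a prior count of 2. Correlations were tested by exact two-sided permutation in Python 3.11.15. Limits of 3 counts cover counting error only. The tests were tried on simulated data. Other alternatives were other normalizations and filters, protein-coding transcripts, transcript length, each block alone, a replicate block, marker means as covariates, and leaving out each mouse. The limit of 1000 bases on transcripts and the glucocorticoid and immediate early covariates were added after seeing the data.

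The members and gene lists were chosen with earlier results of these data known. The genes named are the 10 members and, of each list, the 4 most abundant, those past the threshold, the 2 with the smallest p per direction and those under 3 counts, with the 3 genes most like *Arntl*, *Per1*, *Per2* and *Nr1d1*. *Slc1a3*, *Avp*, *Vip*, *Nms*, the other suprachiasmatic markers, *Rora*, *Rorb*, *Usp2* and *Hlf* were named after their values were seen. Some results under this rule are not reported here.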

Additional observations from a re-analysis of the deposited data

Results flagged for a closer look

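Within each sex, the lowest or highest of 4 mice stood apart from the others (Dixon's criterion at 95%) in 2 of 52 groups, from 26 clock, other clock and output genes. Chance flags about 1 in 20 groups. *Arntl* in female 3 was 29.4 CPM, with the other females between 23.8 and 23.9 CPM. *Nr1d1* in male 3 was 40.9 CPM, with the other males between 48.8 and 50.2 CPM. Without female 3 the *Arntl* difference was -0.05.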

How the results depend on the processing

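The replicate numbers did not pair the mice (deviations of same-numbered mice correlated at -0.40, -0.16, 0.04 and 0.07, and 0 of 4 males was closest to the female of its number). A replicate block left 1 of the 24 genes called by sex and none of the members, other clock genes or output genes. The member count stayed at 0 under every alternative, with the lowest adjusted p of 0.0984 for *Npas2* in the first block alone. Over all genes, the count of 24 became 1015 with DESeq2, 14 with a transcript length offset, 3, 13 and 2 with the neuron identity, microglial and immediate early means as covariates, and 8 to 415 when 1 mouse was left out (415 without female 1, 410 without male 1). Other clock genes gave 1 with DESeq2, which was *Nono*, and output genes gave 1 with DESeq2, and between 0 and 1 when 1 mouse was left out. Signs turned for *Clock* (-0.139, -0.0458 and -0.0698) with the neuron identity, microglial and immediate early covariates, for *Per3* (-0.0174 and -0.0123) with the neuron identity and immediate early covariates, for *Cry2* (-0.000393 and -0.00243) with the neuron identity and microglial covariates, and for *Arntl* (-0.0017) with the length offset and without female 3 or male 1, with a range of -0.0523 to 0.11 over the mice left out. In log2(TPM + 1), 1 member pair passed (*Clock* with *Per3*). For output genes, 1 relation passed in log2(TPM + 1), 1 with transcripts of at least 1000 bases, 1 after the neuron identity mean, and between 0 and 2 when 1 mouse was left out (2 without male 1). For 10 relations the sign was kept in 180 of 180 alternatives. These were the 8 member pairs with an unadjusted p under 0.05 (exact permutation), and *Nr1d1* with *Bhlhe40* and with *Nfil3*. They were picked for their size in these same 8 mice, so the kept signs are no independent support. Other relations given above did turn sign when 1 mouse was left out, such as *Arntl* with *Nr1d2* (-0.46 to 0.08). Of the 10 members, 4 kept their place in the order of levels in CPM, 5 with protein-coding transcripts and 5 with transcripts of at least 1000 bases. The cause of these changes was not tested. With 4 mice per sex, the intervals limit what can be said, and for *Cry2* counting error (SD 0.05 in log2 CPM) was below the spread between mice (0.11).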
